A study of Mus musculus with 86 samples.

Results

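The comparison concerns mouse kidneys after unilateral ureteral obstruction, a model in which a ureter is tied and the kidney behind it scars, with UNC569 or with DMSO alone. UNC569 is a small-molecule inhibitor of MERTK, a receptor tyrosine kinase, and DMSO is its solvent. Members were chosen by the headings of the kidney table: 7 libraries headed as obstructed with UNC569 and 4 headed as obstructed with DMSO, 11 libraries in a series of 86 samples. All mice are labelled wild type, and the DMSO mice share the surgery and the injection of solvent. The same table holds sham-operated kidneys, 3 with UNC569 and 3 with DMSO. The labels name 8 obstructed kidney samples with UNC569 and 4 with DMSO, while the table has 7 and 4 columns that carry only a group and a number counted from 0. No column could therefore be tied to a labelled sample or an animal. Dose, days after surgery, strain and age were not given in the sources used here. Values are FPKM (fragments scaled to transcript length and to library size) as deposited, and the depth behind them is unknown.

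MERTK, AXL and TYRO3 form the TAM family of receptors. Their ligands, GAS6 and protein S, bridge the receptors to phosphatidylserine on dying cells, and MERTK on macrophages drives the uptake of such cells. In an obstructed kidney tubules dilate and lose transport functions, leukocytes enter, and fibroblasts and pericytes become myofibroblasts, contractile cells that lay down collagen. The comparison asks how a MERTK inhibitor alters the transcripts of such a kidney.

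A gene was tested where it reached 1 FPKM in at least 3 kidney libraries, on log2(FPKM + 1) with limma. Fold changes are on that scale, UNC569 minus DMSO, with the standard error of the fit, and understate changes of low genes. Means are given with the SD over 7 UNC569 and 4 DMSO libraries. P-values were adjusted by Benjamini-Hochberg over all 15338 genes tested, and genes with an adjusted p under 0.05 are said to have passed. The fit held all 4 kidney groups, so these p-values rest on a spread shared by the obstructed and the sham libraries. It is a spread between libraries, since nothing ties each library to a separate animal. In obstructed kidney 38 genes were higher with UNC569 (0.248% of those tested) and 161 were lower (1.05%), with a median log2 fold change of -0.03 over all genes. At an unadjusted p under 0.05, 1058 were higher (6.90%) and 1771 lower (11.5%). Median-of-ratios scaling gave 74 higher and 169 lower. With only the 2 obstructed groups in the fit, 6 were higher and 37 lower. Groups are said not to overlap where every UNC569 library lay on the same side of every DMSO library. How common this was over all genes tested is not given, so it describes a gene and is no support.

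All 19 listed proximal tubule, 15 thick limb and distal tubule and 10 podocyte genes reached the level for testing, which sham libraries alone can meet. In the 11 obstructed libraries the proximal tubule list summed to 808 to 4876 FPKM, against 47045 to 68986 FPKM in the sham libraries. The thick limb and distal tubule list summed to 415 to 1123 FPKM and the podocyte list to 161 to 372 FPKM in the obstructed libraries. The counts depended on single libraries. Without DMSO library 0, 1, 2 or 3 there were 7, 0, 1 or 11 genes higher and 27, 7, 33 or 63 lower. Without UNC569 library 1, 3, 4 or 6 there were 3, 8, 8 or 7 higher and 37, 68, 42 or 71 lower, and without UNC569 library 0 or 2 there were 79 or 61 higher and 213 or 268 lower. The UNC569 libraries were also unequally alike. The rank correlation over the tested genes was 0.977 between UNC569 libraries 0 and 2 and 0.980 between libraries 3 and 6, while the other 19 pairs of UNC569 libraries lay between 0.921 and 0.964 and the 6 pairs of DMSO libraries between 0.956 and 0.971. No 2 columns were identical, and without depths it could not be tested whether a close pair differed by more than sampling noise. With each close pair averaged and counted as 1 library, 15 genes were higher and 105 lower, and 115 of these 120 were among the 199 genes above. Without UNC569 libraries 4 and 5, the lowest in matrix genes, 55 were higher and 157 lower, 122 of them among the 199. Without libraries 0 and 2, the highest in matrix genes, 299 were higher and 738 lower, 197 of them among the 199. These 3 alternatives were chosen after seeing the data. The last 2 left out libraries for their matrix levels, which fixes the direction in which they move matrix genes, so a pass of such a gene without libraries 0 and 2 is no support for it. Below, the 3 stand with 17 planned ones as the "20 alternatives" under which a gene was tested again.

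**Figure D1:**
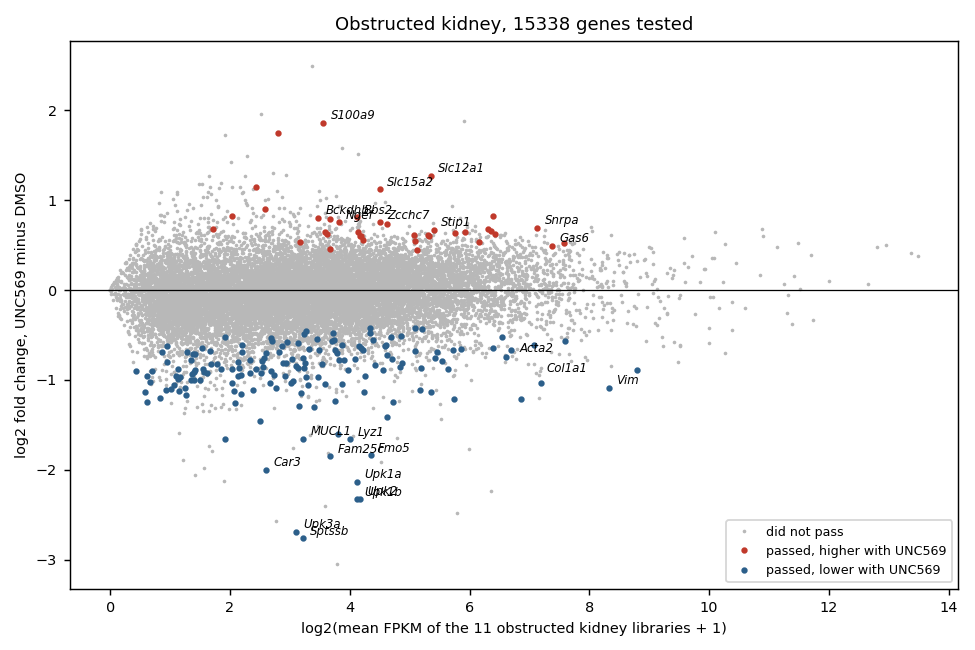
Each point is a gene tested in obstructed kidney, with its level over the 11 libraries on the x axis and the log2 fold change, UNC569 minus DMSO, on the y axis. Coloured points are the 38 genes that passed and were higher and the 161 that passed and were lower, and Upk1a lies among the lower ones while Col1a1 and Acta2 did not pass.

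The receptor transcripts did not pass the test, and that of the ligand Gas6 did. Mertk (ENSMUSG00000014361, GRCm38 chromosome 2, 128698956 to 128802894, plus strand) had 10.9, 18.3, 11.9, 12.8, 9.40, 12.9 and 12 FPKM in UNC569 libraries 0 to 6, against 8.96, 8.80, 10.9 and 12.1 FPKM in DMSO libraries 0 to 3. The groups overlap, and the means were 12.6 ± 2.78 FPKM with UNC569 and 10.2 ± 1.61 FPKM with DMSO (log2 fold change 0.27 ± 0.15, adjusted p = 0.343 by limma). UNC569 acts on the kinase, whose activity was not measured here. Gas6 (ENSMUSG00000031451, GRCm38 chromosome 8, 13465374 to 13494490, minus strand) had 170.0, 207, 195, 186, 196, 148 and 190.0 FPKM in UNC569 libraries 0 to 6, against 146, 144, 114 and 119.8 FPKM in DMSO libraries 0 to 3. Every UNC569 library lay above every DMSO library, with library 5 the nearest. Gas6 rose by 0.49 ± 0.11 (adjusted p = 0.0405 by limma) and passed in 8 of 20 alternatives. An exon of Gas6 overlaps one of Tmem255b on the other strand, and reads of this unstranded kit cannot be told apart there. Axl averaged 50.2 ± 10.7 FPKM with UNC569 and 68.2 ± 8.73 FPKM with DMSO (-0.46 ± 0.20, adjusted p = 0.229 by limma), with 6 of 7 UNC569 libraries below all DMSO libraries. Tyro3 averaged 3.32 ± 0.627 FPKM with UNC569 and 4.82 ± 0.812 FPKM with DMSO (-0.43 ± 0.15, adjusted p = 0.152 by limma). Pros1, which encodes protein S, averaged 29.9 ± 10.3 FPKM with UNC569 and 32.2 ± 4.80 FPKM with DMSO (-0.17 ± 0.22, adjusted p = 0.725 by limma).

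Of 14 other genes of the uptake of dying cells, only Cd47 passed and was lower, against 1.05% of all genes. It encodes a surface signal that restrains phagocytosis, and the table lists it under 2 gene identifiers. The row that passed averaged 5.79 ± 1.99 FPKM with UNC569 and 10.8 ± 1.29 FPKM with DMSO (-0.84 ± 0.20, adjusted p = 0.0477 by limma, 6 of 20 alternatives). The other row averaged 63.7 ± 16.2 FPKM with UNC569 and 56.7 ± 10.9 FPKM with DMSO and did not pass, so a direction for Cd47 is uncertain. Itgb5, an integrin subunit that serves such uptake, averaged 61.4 ± 19.4 FPKM with UNC569 and 89.1 ± 9.68 FPKM with DMSO and did not pass (adjusted p = 0.125 by limma).

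None of the 24 fibrillar collagen and core matrix genes passed by limma, although all 24 had a fold change below 0. Their median log2 fold change was -0.70, against -0.03 over all genes. At an unadjusted p under 0.05, 12 of them were lower, against 11.5% of all genes. The UNC569 libraries lay far apart. The median of the list, each gene as log2(FPKM + 1) minus its DMSO mean, was 0.02, -0.77, 0.11, -0.51, -1.58, -1.76 and -0.48 in UNC569 libraries 0 to 6, against 0.15, 0.08, 0.05 and -0.28 in DMSO libraries 0 to 3. Libraries 0 and 2 stood among the DMSO libraries, and libraries 1, 3, 4, 5 and 6 stood below all of them. Libraries 4 and 5 also stood apart outside the matrix. The summed level of the 15 listed circadian clock genes, which keep daily time in cells, was 182, 231, 212, 151, 453, 389 and 174 FPKM in UNC569 libraries 0 to 6, against 242, 253, 169 and 205 FPKM in DMSO libraries 0 to 3. That of 11 metallothionein and oxidative stress genes was 2554, 3616, 2714, 3080.3, 6028, 5626 and 3137 FPKM in UNC569 libraries 0 to 6, against 4396, 4673, 1433 and 2231 FPKM in DMSO libraries 0 to 3. In both sums libraries 4 and 5 were the highest of the 11, while 0 of 14 clock and 0 of 9 stress genes tested passed by limma. At an unadjusted p under 0.05, 0 clock genes and 1 stress gene were higher and none lower, against 6.90% and 11.5% of all genes. The median of the stress list was 0.41 and 0.26 in UNC569 libraries 4 and 5, against 0.25, 0.18, -0.14 and -0.26 in DMSO libraries 0 to 3. By that measure library 5 lay close to DMSO library 0. The part of clock and stress genes in the matrix values was not tested. In sham kidney the clock sum was 892, 634 and 678 FPKM with UNC569, against 237, 231 and 259 FPKM with DMSO. Without libraries 4 and 5 the median fold change of the matrix list was -0.28 and 0 passed. With the close pairs averaged it was -0.92 and 0 passed.

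Col1a1 and Col1a2 encode the chains of type I collagen, the main fibre of scar. Col1a1 had 168, 79, 211, 106, 63.2, 41.5 and 119 FPKM in UNC569 libraries 0 to 6, against 193, 214, 236 and 138 FPKM in DMSO libraries 0 to 3. Libraries 0 and 2 lay within the DMSO range and the other 5 below it. The means were 112 ± 59.9 FPKM with UNC569 and 196 ± 42 FPKM with DMSO (log2 fold change -0.95 ± 0.33, adjusted p = 0.147 by limma). Col1a2 had 296, 190.0, 353, 211, 108, 69.3 and 222 FPKM in UNC569 libraries 0 to 6, against 271, 283, 315 and 218 FPKM in DMSO libraries 0 to 3 (-0.55 ± 0.33, adjusted p = 0.384 by limma). Its groups overlap, library 2 being the highest and library 5 the lowest of all 11. Col3a1, the type III collagen found beside type I, had 169, 99.1, 184, 114, 48.8, 40.2 and 124 FPKM in UNC569 libraries 0 to 6, against 189, 186, 193 and 134 FPKM in DMSO libraries 0 to 3 (-0.82 ± 0.33, adjusted p = 0.199 by limma). Fibronectin, Fn1, an adhesive glycoprotein, had 70.9, 31.4, 78.6, 31.6, 21, 20.7 and 35.7 FPKM in UNC569 libraries 0 to 6, against 78.9, 85.4, 67.2 and 56.8 FPKM in DMSO libraries 0 to 3 (-0.94 ± 0.32, adjusted p = 0.137 by limma). In Col3a1 and in Fn1, UNC569 libraries 0 and 2 again lay at DMSO levels and the other 5 below them. Postn, the matricellular protein periostin, had 30.2, 8.86, 28.8, 13, 2.30, 4.06 and 13.1 FPKM in UNC569 libraries 0 to 6, against 19.9, 18.3, 15.2 and 13.4 FPKM in DMSO libraries 0 to 3 (-0.58 ± 0.50, adjusted p = 0.559 by limma). Here UNC569 libraries 0 and 2 lay above every DMSO library. Col6a2, a chain of type VI collagen, had 41.7, 25.8, 47.9, 38, 19.7, 14.2 and 41 FPKM in UNC569 libraries 0 to 6, against 48.7, 58.1, 65.4 and 52.5 FPKM in DMSO libraries 0 to 3 (-0.86 ± 0.26, adjusted p = 0.0976 by limma). Its groups did not overlap. Col8a1, a short-chain collagen, averaged 7.06 ± 4.43 FPKM with UNC569 and 14.6 ± 4.73 FPKM with DMSO (-1.08 ± 0.33, adjusted p = 0.105 by limma), and the microfibril protein fibrillin-1, Fbn1, averaged 8.88 ± 3.87 FPKM with UNC569 and 15 ± 1.65 FPKM with DMSO (-0.79 ± 0.25, adjusted p = 0.114 by limma). Exons of Fn1 overlap one of Apol7d on the other strand, and exons of Col3a1 overlap Gm47302.

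**Figure D2:**
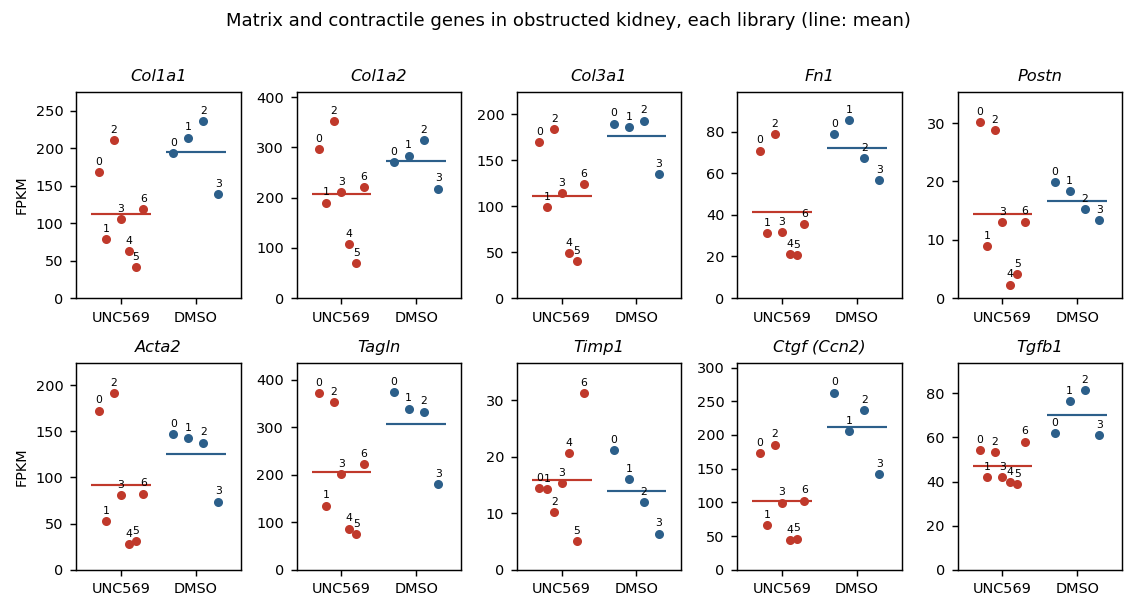
FPKM of 10 matrix, contractile and TGF-beta genes in each obstructed kidney library, UNC569 left of DMSO, with points numbered by library and lines at the group means. UNC569 libraries 0 and 2 lie within or above the DMSO range in all panels but Tgfb1, and libraries 4 and 5 are the lowest 2 of the UNC569 libraries in all but Timp1.

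The contractile and mesenchymal genes showed the same order of libraries. Vim was the 1 of 15 that passed, and was lower, against 1.05% of all genes. The median of the list was 0.13, -0.74, 0.25, -0.49, -1.21, -1.43 and -0.41 in UNC569 libraries 0 to 6, against 0.13, 0.22, 0.09 and -0.31 in DMSO libraries 0 to 3, and the median fold change was -0.52. Acta2, the smooth muscle actin that marks myofibroblasts (ENSMUSG00000035783, GRCm38 chromosome 19, 34241090 to 34255590, minus strand), had 172, 53, 192, 81, 28.2, 30.7 and 82.5 FPKM in UNC569 libraries 0 to 6, against 147, 143, 138 and 73.7 FPKM in DMSO libraries 0 to 3. UNC569 libraries 0 and 2 were above every DMSO library, and libraries 1, 4 and 5 below every one (log2 fold change -0.73 ± 0.43, adjusted p = 0.368 by limma). Tagln, the actin-binding protein transgelin, had 372, 135, 352, 201, 86.4, 74.7 and 222 FPKM in UNC569 libraries 0 to 6, against 373, 339, 333 and 180.4 FPKM in DMSO libraries 0 to 3 (-0.75 ± 0.39, adjusted p = 0.308 by limma). DMSO library 3 was the lowest DMSO library in Col1a1, Acta2 and Tagln. Exons of Tagln overlap Gm48529 and Pcsk7 on the other strand. The promoter of Acta2 is shown because serum response factor, which drives contractile genes, is known to bind CArG elements such as the pair it holds. The window runs from 250 bases before to 50 after the annotated start (RefSeq, GRCm38.p6, chr19:34255324-34255623, minus strand).
Acta2: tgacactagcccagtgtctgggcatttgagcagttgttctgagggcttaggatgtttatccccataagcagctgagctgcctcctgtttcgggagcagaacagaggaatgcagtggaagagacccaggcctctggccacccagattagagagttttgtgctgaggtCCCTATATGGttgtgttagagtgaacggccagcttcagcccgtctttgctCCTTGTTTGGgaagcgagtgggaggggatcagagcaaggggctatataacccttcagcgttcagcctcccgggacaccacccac
Capitals mark the matches to CCNNNNNNGG with at most 1 C or G among the 6 middle bases, a pattern that reads alike on both strands. They begin 84 and 34 bases before the start. The pattern is found in 9.98% of 32851 promoter windows of that length, and 0.822% hold it 2 or more times. A match describes the sequence and says nothing about binding in these kidneys.

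Vim, the intermediate filament vimentin of mesenchymal cells, had 375, 179.7, 394, 211, 144, 166 and 175 FPKM in UNC569 libraries 0 to 6, against 494, 526, 446 and 405 FPKM in DMSO libraries 0 to 3. All UNC569 libraries lay below all DMSO libraries, libraries 0 and 2 being the nearest. Vim fell by 1.09 ± 0.23 (adjusted p = 0.0333 by limma) and passed in 8 of 20 alternatives. The 20 include the run without libraries 0 and 2, the highest UNC569 libraries in Vim, where a pass is no support. Tpm2, a tropomyosin, averaged 7.14 ± 2.85 FPKM with UNC569 and 13.5 ± 4.55 FPKM with DMSO (-0.85 ± 0.28, adjusted p = 0.124 by limma). Ltbp2, a latent TGF-beta binding protein, averaged 25 ± 6.02 FPKM with UNC569 and 35.2 ± 0.656 FPKM with DMSO without overlap (-0.51 ± 0.19, adjusted p = 0.164 by limma).

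TGF-beta is the best-known fibrogenic cytokine, and 0 of 18 genes of its pathway passed, with 6 lower at an unadjusted p under 0.05, against 11.5% of all genes, and a median of -0.34. The ligand gene Tgfb1 had 54.3, 41.9, 53.5, 41.9, 39.6, 38.7 and 58.1 FPKM in UNC569 libraries 0 to 6, against 62, 76.4, 81.5 and 61.2 FPKM in DMSO libraries 0 to 3 (-0.58 ± 0.19, adjusted p = 0.118 by limma). Its groups did not overlap. The receptor gene Tgfbr2 averaged 50.3 ± 16 FPKM with UNC569 and 76.3 ± 3.21 FPKM with DMSO without overlap (-0.65 ± 0.19, adjusted p = 0.0888 by limma). Ctgf, which encodes connective tissue growth factor, had 173, 66.3, 186, 99.6, 44.1, 46.2 and 102 FPKM in UNC569 libraries 0 to 6, against 263, 206, 237 and 141 FPKM in DMSO libraries 0 to 3 (-1.20 ± 0.35, adjusted p = 0.089 by limma). Only UNC569 libraries 0 and 2 reached the DMSO range. An exon of Ctgf overlaps one of Gm15270 on the other strand. Smad7, an inhibitor of the pathway, averaged 13.5 ± 2.58 FPKM with UNC569 and 18.5 ± 3.40 FPKM with DMSO (-0.43 ± 0.16, adjusted p = 0.163 by limma).

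In basement membranes, Col4a1, a chain of their type IV collagen network, was the 1 of 15 genes that passed, against 1.05% of all genes that passed and were lower. Col4a1 had 115, 95.4, 136, 125, 94.4, 102 and 121 FPKM in UNC569 libraries 0 to 6, against 172, 189.7, 181 and 145 FPKM in DMSO libraries 0 to 3, and the groups did not overlap. It fell by 0.61 ± 0.14 (adjusted p = 0.0405 by limma, 8 of 20 alternatives). Its partner chain Col4a2 averaged 135 ± 26.1 FPKM with UNC569 and 191 ± 37.6 FPKM with DMSO (-0.49 ± 0.16, adjusted p = 0.13 by limma), and the proteoglycan perlecan, Hspg2, 92.3 ± 29.9 FPKM with UNC569 and 141 ± 20.8 FPKM with DMSO (-0.65 ± 0.22, adjusted p = 0.131 by limma). Lama5, a laminin chain, averaged 76.3 ± 23.4 FPKM with UNC569 and 45.7 ± 4.49 FPKM with DMSO (0.67 ± 0.24, adjusted p = 0.154 by limma). Of 15 genes of collagen processing 0 passed by limma, with 1 higher and 1 lower at an unadjusted p under 0.05. Of 18 proteases and inhibitors of matrix 0 passed, with 1 higher and 4 lower without adjustment. Over all genes, 6.90% were higher and 11.5% lower without adjustment. Loxl2, an enzyme that crosslinks collagen, averaged 20.2 ± 12.4 FPKM with UNC569 and 32.9 ± 4.82 FPKM with DMSO (-0.88 ± 0.34, adjusted p = 0.177 by limma), and the protease gene Mmp3 1.73 ± 1.01 FPKM with UNC569 and 4.06 ± 1.08 FPKM with DMSO (-0.95 ± 0.26, adjusted p = 0.0761 by limma). Timp1, a protease inhibitor, had 14.5, 14.3, 10.2, 15.3, 20.6, 5.07 and 31.4 FPKM in UNC569 libraries 0 to 6, against 21.2, 16, 11.9 and 6.41 FPKM in DMSO libraries 0 to 3, with overlap on both sides (0.13 ± 0.34, adjusted p = 0.867 by limma).

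The urothelium, the lining of the renal pelvis and ureter, carries plaques of uroplakins on its surface, and uroplakins were 4 of the 10 named genes with the largest falls. Genes named as the largest rises and falls had to pass without overlap, here and below, so their separation is no further support. Of 120 passing genes with a mean of at least 10 FPKM in either group, 29 higher and 74 lower did not overlap. The same count over all genes tested is not given. Of 10 urothelial genes tested, 5 passed and were lower, against 1.05% of all genes, and the median log2 fold change was -1.60. Upk1a (ENSMUSG00000006313, GRCm38 chromosome 7, 30603092 to 30612847, minus strand) had 4.35, 2.38, 5.92, 9.45, 5.44, 11.6 and 11.2 FPKM in UNC569 libraries 0 to 6, against 31.4, 44.1, 33.7 and 22 FPKM in DMSO libraries 0 to 3. Upk1a fell by 2.14 ± 0.35 (adjusted p = 0.0102 by limma) and passed in 19 of 20 alternatives. Upk3a had 0.589, 0, 0.504, 3.57, 0.976, 5.63 and 5.69 FPKM in UNC569 libraries 0 to 6, against 17.2, 23, 15.2 and 11.4 FPKM in DMSO libraries 0 to 3, listed at 0 in UNC569 library 1 (-2.69 ± 0.46, adjusted p = 0.0121 by limma, 18 of 20 alternatives). Upk1b had 4.26, 0.192, 4.98, 15.5, 3.24, 11.5 and 13.8 FPKM in UNC569 libraries 0 to 6, against 35.2, 29.4, 30.8 and 31.2 FPKM in DMSO libraries 0 to 3 (-2.33 ± 0.55, adjusted p = 0.0477 by limma, 5 of 20 alternatives). In all of Upk1a, Upk1b, Upk2 and Upk3a each UNC569 library was below each DMSO library. The order differed from that of the matrix genes, with UNC569 libraries 3, 5 and 6 nearest to DMSO and library 1 lowest. Upk2 had 2.73, 0.50, 2.52, 15.1, 4.82, 14.3 and 18.2 FPKM in UNC569 libraries 0 to 6, against 36.7, 29.3, 38.4 and 25.4 FPKM in DMSO libraries 0 to 3 (-2.32 ± 0.54, adjusted p = 0.0462 by limma, 9 of 20 alternatives). Foxq1, a transcription factor gene of the same list, averaged 17.2 ± 4.43 FPKM with UNC569 and 32 ± 4.64 FPKM with DMSO (-0.89 ± 0.18, adjusted p = 0.0315 by limma, 14 of 20 alternatives). The summed level of the 11 listed genes was 214 to 607 FPKM with UNC569, against 798 to 871 FPKM with DMSO. In bulk tissue, fewer cells of a type and less RNA per cell cannot be told apart. How much pelvis each kidney sample held is not given in the sources used here. In sham kidney the median fold change of the list was -1.41, and Upk1a had 0.789, 3.71 and 1.44 FPKM with UNC569, against 4.36, 10.6 and 7.70 FPKM with DMSO. The test of the difference between the obstructed and the sham response did not pass for these uroplakins (adjusted p = 0.523 for Upk1a, 0.225 for Upk1b, 0.821 for Upk2 and 0.391 for Upk3a by limma).

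**Figure D3:**
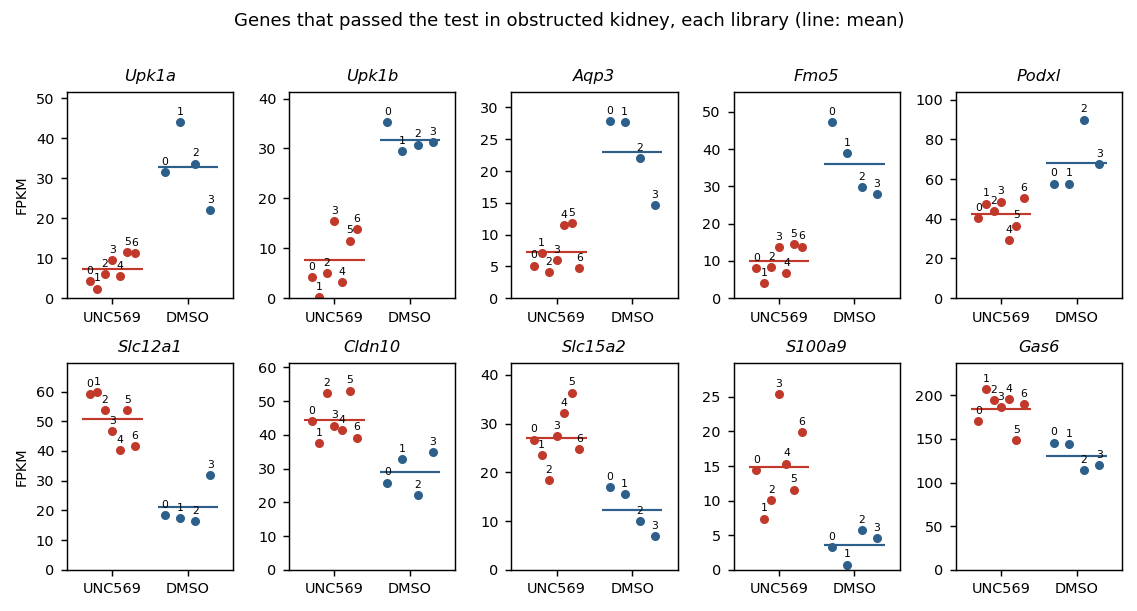
FPKM of 10 genes that passed in obstructed kidney, in each library, UNC569 left of DMSO, with points numbered by library and lines at the group means. The groups do not overlap in any panel: Upk1a, Upk1b, Aqp3, Fmo5 and Podxl are lower with UNC569, and Slc12a1, Cldn10, Slc15a2, S100a9 and Gas6 are higher. Upk1a, Upk1b, Fmo5, Slc12a1, Slc15a2 and S100a9 were named by a rule that required no overlap.

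Among tubule segments, 2 of 15 genes of the thick limb and distal tubule passed, both higher, against 0.248% of all genes (median 0.32). Slc12a1, the cotransporter of sodium, potassium and chloride that defines the thick limb (ENSMUSG00000027202, GRCm38 chromosome 2, 125152505 to 125230002, plus strand), had 59.2, 59.9, 53.8, 46.6, 40.4, 53.9 and 41.7 FPKM in UNC569 libraries 0 to 6, against 18.4, 17.4, 16.5 and 31.8 FPKM in DMSO libraries 0 to 3. All UNC569 libraries lay above all DMSO libraries. Slc12a1 rose by 1.27 ± 0.21 (adjusted p = 0.0109 by limma) and passed in 19 of 20 alternatives. In sham kidney it averaged 174 FPKM with UNC569 and 115 FPKM with DMSO. Cldn10, a claudin of that segment, averaged 44.3 ± 6.11 FPKM with UNC569 and 28.9 ± 5.89 FPKM with DMSO (0.61 ± 0.15, adjusted p = 0.0485 by limma, 3 of 20 alternatives). Calb1, the calcium-binding protein calbindin of the distal convoluted tubule, had 1.77, 1.98, 1.31, 0.670, 1.31, 1.48 and 0.800 FPKM in UNC569 libraries 0 to 6, against 9.46, 6.90, 2.61 and 0.919 FPKM in DMSO libraries 0 to 3, which overlap through DMSO library 3 (-1.10 ± 0.36, adjusted p = 0.124 by limma). In the collecting duct list 1 of 14 passed and was lower, against 1.05% of all genes. Aqp3, a water channel of principal cells, had 5.12, 7.12, 4.15, 5.94, 11.4, 11.9 and 4.70 FPKM in UNC569 libraries 0 to 6, against 27.8, 27.6, 22.1 and 14.6 FPKM in DMSO libraries 0 to 3. Aqp3 fell by 1.60 ± 0.26 (adjusted p = 0.0102 by limma) and passed in 19 of 20 alternatives. Urothelium makes Aqp3 too, and the part of the lower summed urothelial level in this fall was not tested. Avpr2, the vasopressin receptor of the collecting duct, averaged 8.40 ± 1.75 FPKM with UNC569 and 6.16 ± 1.08 FPKM with DMSO (0.39 ± 0.16, adjusted p = 0.203 by limma).

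Of 19 proximal tubule genes 0 passed by limma, with 0 higher and 1 lower at an unadjusted p under 0.05. The shares over all genes were 6.90% and 11.5%. The proximal tubule list split both groups. Its median was -0.52, -0.51, -0.45, -0.62, 0.37, 0.91 and -0.56 in UNC569 libraries 0 to 6, against 0.66, 0.81, -1.09 and -0.40 in DMSO libraries 0 to 3. UNC569 libraries 4 and 5, lowest in matrix genes, were the highest UNC569 libraries here, and DMSO libraries 0 and 1 also lay above 0. The part of such differences between kidneys in the matrix values was not tested. Gatm, an enzyme of creatine synthesis, averaged 17 ± 5.99 FPKM with UNC569 and 26.5 ± 9.47 FPKM with DMSO (-0.61 ± 0.27, adjusted p = 0.239 by limma), and Slc3a1, an amino acid transporter subunit, 57 ± 14.7 FPKM with UNC569 and 43.6 ± 13.1 FPKM with DMSO (0.40 ± 0.19, adjusted p = 0.274 by limma). Of 19 tubular injury genes 1 passed and was lower, against 1.05% of all genes. This was Clu, the secreted chaperone clusterin, which had 409, 291, 486, 235, 302, 431 and 245 FPKM in UNC569 libraries 0 to 6, against 619, 715, 610.1 and 529.5 FPKM in DMSO libraries 0 to 3. Clu fell by 0.89 ± 0.20 without overlap (adjusted p = 0.0405 by limma, 7 of 20 alternatives). Havcr1, which encodes the injury marker KIM-1, had 228, 226, 212, 378, 319, 389 and 371 FPKM in UNC569 libraries 0 to 6, against 211, 189, 127 and 232 FPKM in DMSO libraries 0 to 3 (0.66 ± 0.21, adjusted p = 0.107 by limma). Its UNC569 libraries 3 to 6 lay above the DMSO range and libraries 0 to 2 within it. Itgb6, an integrin subunit that activates latent TGF-beta, averaged 34.3 ± 2.22 FPKM with UNC569 and 26.7 ± 2.23 FPKM with DMSO without overlap (0.35 ± 0.10, adjusted p = 0.0761 by limma), and Prom1 averaged 43.3 ± 14.2 FPKM with UNC569 and 26.4 ± 3.20 FPKM with DMSO (0.64 ± 0.20, adjusted p = 0.105 by limma).

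**Figure D4:**
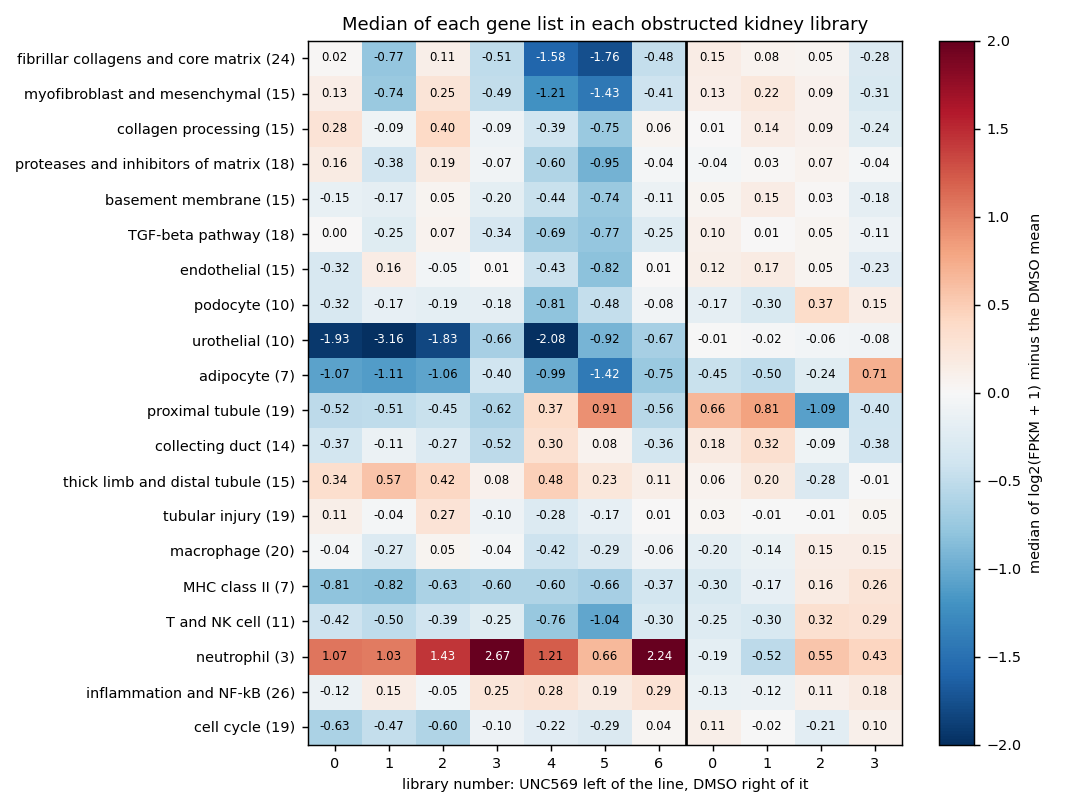
Median of each gene list, each gene as log2(FPKM + 1) minus its DMSO mean, in the 7 UNC569 libraries (left) and the 4 DMSO libraries (right), with colours stopping at 2 and -2. The matrix row is lowest in UNC569 libraries 4 and 5 and near 0 in libraries 0 and 2. The urothelial, MHC class II, T and NK cell, adipocyte and podocyte rows are below 0 in all 7.

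In the glomerulus, the median log2 fold change of 10 podocyte genes was -0.28. Podxl, a sialoprotein of the podocyte surface, had 40.2, 47.6, 43.8, 48.6, 29.4, 36.5 and 50.2 FPKM in UNC569 libraries 0 to 6, against 57.7, 57.7, 89.9 and 67.4 FPKM in DMSO libraries 0 to 3. Podxl fell by 0.67 ± 0.16 without overlap (adjusted p = 0.0466 by limma, 4 of 20 alternatives), and Clic5 averaged 7.33 ± 1.63 FPKM with UNC569 and 11.5 ± 1.81 FPKM with DMSO (-0.59 ± 0.16, adjusted p = 0.0735 by limma). Of 15 endothelial genes 0 passed by limma, with 0 higher and 2 lower at an unadjusted p under 0.05, against 6.90% and 11.5% of all genes (median -0.16). Kdr, a receptor for vascular endothelial growth factor, averaged 5.11 ± 1.40 FPKM with UNC569 and 8.93 ± 1.01 FPKM with DMSO without overlap (-0.74 ± 0.19, adjusted p = 0.0609 by limma), and the junction gene Cdh5 21.1 ± 5.32 FPKM with UNC569 and 32.4 ± 6.70 FPKM with DMSO (-0.62 ± 0.19, adjusted p = 0.113 by limma).

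Of 20 macrophage genes 0 passed by limma, and the median was -0.11. At an unadjusted p under 0.05, 1 was higher and 2 were lower, against 6.90% and 11.5% of all genes. The library medians ran from -0.42 to 0.05 with UNC569, against -0.20 to 0.15 with DMSO. Cd68, a lysosomal membrane protein, averaged 17.5 ± 3.41 FPKM with UNC569 and 27.3 ± 6.13 FPKM with DMSO (-0.61 ± 0.22, adjusted p = 0.148 by limma), and the complement gene C1qb 383 ± 43.7 FPKM with UNC569 and 500.1 ± 70.3 FPKM with DMSO (-0.38 ± 0.19, adjusted p = 0.294 by limma). Spp1, osteopontin, which tubules make too, averaged 11502 ± 1518 FPKM with UNC569 and 8876 ± 2446 FPKM with DMSO (0.41 ± 0.16, adjusted p = 0.188 by limma).

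MHC class II genes serve antigen presentation, and their median was below that of the DMSO libraries in all 7 UNC569 libraries. All 7 were lower at an unadjusted p under 0.05, against 11.5% of all genes (median -0.66), and 1 passed, against 1.05% of all genes. This was Ciita, their master regulator, which had 3.43, 4.80, 4.64, 4.21, 5.07, 5.26 and 5.90 FPKM in UNC569 libraries 0 to 6, against 6.48, 6.80, 8.98 and 11.3 FPKM in DMSO libraries 0 to 3. Ciita fell by 0.69 ± 0.16 without overlap (adjusted p = 0.0477 by limma, 5 of 20 alternatives). The peptide-loading genes did not overlap either: H2-DMa averaged 36.7 ± 4.32 FPKM with UNC569 and 65.4 ± 10.1 FPKM with DMSO (-0.81 ± 0.24, adjusted p = 0.0861 by limma), and H2-DMb1 34.3 ± 4.30 FPKM with UNC569 and 54.7 ± 6.25 FPKM with DMSO (-0.66 ± 0.19, adjusted p = 0.0791 by limma). The library medians of the list ran from -0.82 to -0.37 with UNC569, against -0.30 to 0.26 with DMSO, so UNC569 libraries 0 and 2, high in matrix genes, were low here. Of 11 T and NK cell genes 0 passed and 6 were lower at an unadjusted p under 0.05, against 11.5% of all genes (median -0.48). Nkg7, of cytotoxic cells, averaged 4.65 ± 2.01 FPKM with UNC569 and 9.97 ± 3.27 FPKM with DMSO without overlap (-1.01 ± 0.29, adjusted p = 0.0781 by limma), and the T cell receptor subunit Cd3e 3.36 ± 1.53 FPKM with UNC569 and 6.74 ± 2.26 FPKM with DMSO (-0.86 ± 0.27, adjusted p = 0.111 by limma). Of 5 B and plasma cell genes 0 passed by limma, with 0 higher and 1 lower at an unadjusted p under 0.05. The shares over all genes were 6.90% and 11.5%.

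The calprotectin genes S100a9 and S100a8, abundant in neutrophils, were higher. S100a9 had 14.5, 7.40, 10.1, 25.4, 15.3, 11.6 and 19.95 FPKM in UNC569 libraries 0 to 6, against 3.26, 0.761, 5.77 and 4.61 FPKM in DMSO libraries 0 to 3. S100a9 rose by 1.86 ± 0.43 without overlap (adjusted p = 0.0426 by limma, 7 of 20 alternatives). S100a8 averaged 8.48 ± 4.98 FPKM with UNC569 and 1.58 ± 0.827 FPKM with DMSO (1.75 ± 0.40, adjusted p = 0.042 by limma, 8 of 20 alternatives). Only 3 of 10 neutrophil markers reached the level for testing, and the third, the receptor gene Csf3r, averaged 7.12 ± 1.08 FPKM with UNC569 and 6.73 ± 2.51 FPKM with DMSO (0.13 ± 0.22, adjusted p = 0.795 by limma). Of 26 inflammation genes 0 passed by limma, with 5 higher and 2 lower at an unadjusted p under 0.05. Over all genes, 6.90% were higher and 11.5% lower without adjustment. The chemokine gene Ccl3 averaged 4.85 ± 2.43 FPKM with UNC569 and 1.59 ± 0.620 FPKM with DMSO (1.10 ± 0.27, adjusted p = 0.0559 by limma), Ccl4 3.67 ± 2.02 FPKM with UNC569 and 1.49 ± 0.992 FPKM with DMSO (0.88 ± 0.29, adjusted p = 0.13 by limma), and Cxcl2, which attracts neutrophils, 8.06 ± 1.90 FPKM with UNC569 and 5.11 ± 1.71 FPKM with DMSO (0.59 ± 0.19, adjusted p = 0.114 by limma). Of 12 complement genes 0 passed by limma, with 0 higher and 0 lower at an unadjusted p under 0.05, and of 18 interferon-stimulated genes 0 passed, with 0 higher and 1 lower without adjustment.

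Other large rises were in genes of varied roles. Slc15a2, a peptide transporter of the proximal tubule, had 26.7, 23.5, 18.4, 27.5, 32.2, 36.4 and 24.7 FPKM in UNC569 libraries 0 to 6, against 16.9, 15.5, 9.99 and 6.84 FPKM in DMSO libraries 0 to 3 (1.12 ± 0.22, adjusted p = 0.0303 by limma, 14 of 20 alternatives). Bbs2, a subunit of the ciliary BBSome, averaged 19.5 ± 3.36 FPKM with UNC569 and 10.8 ± 2.78 FPKM with DMSO (0.81 ± 0.15, adjusted p = 0.0254 by limma, 17 of 20 alternatives). In both the groups did not overlap, as the rule for naming them required. The same held for Bckdhb of branched-chain amino acid breakdown, Zcchc7, Ngef, the spliceosome gene Snrpa and the co-chaperone gene Stip1. They rose by 0.80, 0.76, 0.76, 0.70 and 0.67 in that order (adjusted p from 0.0326 to 0.0477 by limma). Exons of Ngef and Snrpa overlap Neu2 and BC024978 on the other strand. Of 13 mitochondrially encoded genes 0 passed by limma, with 3 higher and 0 lower at an unadjusted p under 0.05 (median 0.48). The shares over all genes were 6.90% and 11.5%.

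Fmo5 and MUCL1 were the 2 of 34 named passing genes that passed under all 20 alternatives. Fmo5, a flavin-containing monooxygenase, had 8.07, 4.08, 8.22, 13.7, 6.61, 14.5 and 13.8 FPKM in UNC569 libraries 0 to 6, against 47.3, 38.9, 29.8 and 28 FPKM in DMSO libraries 0 to 3 (-1.84 ± 0.25, adjusted p = 0.00453 by limma). MUCL1 averaged 4.29 ± 1.39 FPKM with UNC569 and 15.4 ± 3.84 FPKM with DMSO (-1.65 ± 0.21, adjusted p = 0.00397 by limma), with no overlap in either gene. Sptssb, a small subunit of the enzyme that starts sphingolipid synthesis, had 0.659, 0, 0.615, 6.76, 0.338, 4.43 and 6.26 FPKM in UNC569 libraries 0 to 6, against 25.4, 17.7, 12.7 and 16.1 FPKM in DMSO libraries 0 to 3, listed at 0 in UNC569 library 1 (-2.76 ± 0.57, adjusted p = 0.0326 by limma, 11 of 20 alternatives). As in the uroplakins, UNC569 libraries 3, 5 and 6 were nearest to DMSO and library 1 lowest, in Sptssb and in Fmo5. The part of the lower summed urothelial level in these falls was not tested. Fam25c averaged 5.93 ± 4.10 FPKM with UNC569 and 22 ± 10.3 FPKM with DMSO (-1.85 ± 0.40, adjusted p = 0.0333 by limma, 11 of 20 alternatives). Lyz1, a lysozyme gene, averaged 8.78 ± 5.33 FPKM with UNC569 and 26.2 ± 4.73 FPKM with DMSO (-1.66 ± 0.34, adjusted p = 0.0326 by limma, 11 of 20 alternatives), and is uncertain because its near-identical neighbour Lyz2 can share reads with it. Of 19 cell cycle genes 0 passed and 6 were lower at an unadjusted p under 0.05, against 11.5% of all genes (median -0.35). Top2a, a topoisomerase of dividing cells, averaged 4.97 ± 1.71 FPKM with UNC569 and 10.02 ± 0.945 FPKM with DMSO without overlap (-0.93 ± 0.23, adjusted p = 0.0517 by limma).

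Car3, a carbonic anhydrase abundant in fat, had 1.36, 1.19, 0.514, 2.15, 0.633, 1.03 and 1.81 FPKM in UNC569 libraries 0 to 6, against 3.04, 4.40, 6.69 and 33.2 FPKM in DMSO libraries 0 to 3. Car3 fell by 2.00 ± 0.40 without overlap (adjusted p = 0.0303 by limma, 15 of 20 alternatives), and DMSO library 3 stood far above the rest. Fasn, fatty acid synthase, averaged 19.5 ± 3.15 FPKM with UNC569 and 30.4 ± 5.79 FPKM with DMSO (-0.62 ± 0.14, adjusted p = 0.0477 by limma, 5 of 20 alternatives). It was the 1 of 17 lipid synthesis genes that passed, and was lower, against 1.05% of all genes. Of 7 adipocyte markers tested 0 passed and 6 were lower at an unadjusted p under 0.05, against 11.5% of all genes. The summed level of the 9 listed was 32.7 to 83.9 FPKM with UNC569, against 76.2 to 216 FPKM with DMSO, highest in DMSO library 3. Adipoq, the fat hormone adiponectin, had 0, 0.244, 0.222, 0.743, 0.211, 0 and 0.868 FPKM in UNC569 libraries 0 to 6, against 1.82, 2.16, 1.51 and 16.8 FPKM in DMSO libraries 0 to 3, listed at 0 in UNC569 libraries 0 and 5. The part of attached fat in the values of Car3 and Fasn was not tested. Summed markers of other tissues were 0.350 to 2.99 FPKM for skeletal muscle, 2.25 to 5.86 FPKM for adrenal cortex and 10.4 to 40.9 FPKM for liver over the 11 libraries. Ren1, renin of the juxtaglomerular cells, had 7.79, 7.13, 9.60, 11.3, 5.09, 1.66 and 10.3 FPKM in UNC569 libraries 0 to 6, against 28.1, 32.3, 123 and 5.04 FPKM in DMSO libraries 0 to 3 (-1.91 ± 0.56, adjusted p = 0.0906 by limma), with DMSO library 2 highest and DMSO library 3 within the UNC569 range.

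The fold change, UNC569 minus DMSO, differed between obstructed and sham kidney for many genes. The sham groups hold 3 libraries each. Their summed clock genes were 892, 634 and 678 FPKM with UNC569, against 237, 231 and 259 FPKM with DMSO. Whether the sham groups differed in anything besides UNC569 was not tested. In sham kidney 2033 genes were higher with UNC569 (13.3%) and 928 lower (6.05%), in the same fit. The test of the difference, obstructed minus sham response, had 947 genes above 0 (6.17%) and 2053 below 0 (13.4%). Median-of-ratios scaling gave 1586 above and 1366 below and put the median of all genes at 0.03, against -0.13 without it, so the balance of directions depends on scaling. The genes that passed in obstructed kidney were chosen by a fold change that is a term of this difference, so their counts and medians here are a description and no support for a difference. Of the 38 genes higher in obstructed kidney 30 passed the difference test, with a median fold change of 0.65 in obstructed and -0.35 in sham kidney. Of the 161 lower ones 92 passed it, with medians of -0.88 in obstructed and 0.05 in sham kidney.

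The 5 genes with the smallest p in the difference test were Hspb1, Cmtm6, Zbtb7a, Rab43 and Hsph1. Hspb1, a small heat shock protein, averaged 570.2 ± 29.97 FPKM with UNC569 and 467 ± 60.9 FPKM with DMSO in obstructed kidney, and 25.7 FPKM with UNC569 and 165 FPKM with DMSO in sham kidney (difference 2.89 ± 0.20, adjusted p = 7.22e-07 by limma). Hsph1, another chaperone, averaged 14.2 ± 1.59 FPKM with UNC569 and 9.84 ± 1.72 FPKM with DMSO in obstructed kidney, and 20.1 FPKM with UNC569 and 68.7 FPKM with DMSO in sham kidney (2.20 ± 0.25, adjusted p = 0.000159 by limma). Both had a fold change above 0 in obstructed kidney and below 0 in sham kidney. Of 12 heat shock genes 7 had a difference above 0 that passed, against 6.17% of all genes. Their median fold changes were 0.05 in obstructed and -0.84 in sham kidney. Of 16 genes of the unfolded protein and integrated stress response 10 had such a difference, with medians of 0.25 and -0.995. Cmtm6, a membrane protein that stabilises PD-L1, Zbtb7a, a transcriptional repressor, and Rab43, a small GTPase of membrane traffic, went the other way. They fell by 0.42, 0.48 and 0.51 in obstructed kidney, and their sham fold changes were 1.03, 0.91 and 1.07 (adjusted p of the difference 0.000159 for each by limma). An exon of Rab43 overlaps one of Gm45140.

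Aqp3, lower in obstructed kidney, had a sham fold change of 0.65 ± 0.33, adjusted p = 0.18 by limma, and its difference was -2.25 ± 0.42, adjusted p = 0.00219 by limma. For Col1a1 the difference did not pass (-0.14 ± 0.55, adjusted p = 0.879 by limma), with 4.27, 3.61 and 2.30 FPKM with UNC569, against 4.78, 7.99 and 7.21 FPKM with DMSO in sham kidney. Acta2 fell in sham kidney, with 15.7, 14.4 and 13.1 FPKM with UNC569, against 70.4, 50.9 and 63.6 FPKM with DMSO and no overlap (-2.01 ± 0.55, adjusted p = 0.0184 by limma), and its difference did not pass (1.28 ± 0.70, adjusted p = 0.208 by limma). Of 14 clock genes tested, 3 had a difference above 0 that passed and 6 below 0, against 6.17% and 13.4% of all genes. The obstructed libraries summed to 406950 to 461081 FPKM and the sham libraries to 793081 to 1078590 FPKM over all genes, so levels are not matched between the surgeries.

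**Figure D5:**
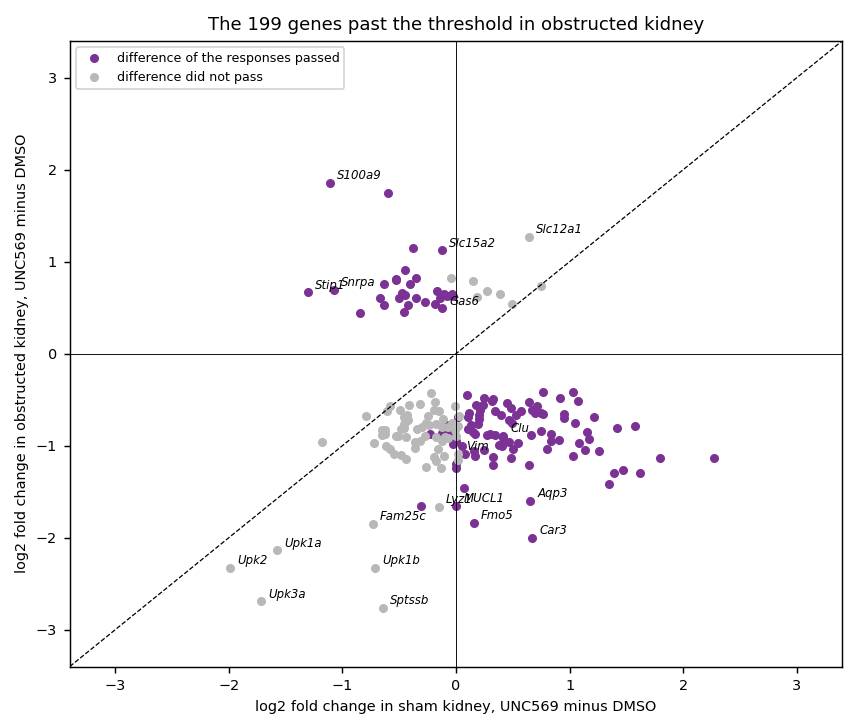
The 199 genes that passed in obstructed kidney, with the log2 fold change, UNC569 minus DMSO, in obstructed and in sham kidney on the axes. Purple points passed the test of the difference between the responses, among them 30 of the 38 higher and 92 of the 161 lower genes, which were chosen by the values on the y axis.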

How the data were processed

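RNA of whole mouse kidneys was sequenced from an unstranded library, per the labels' protocols. The deposited values are FPKM per gene, and the submitters' processing notes name FastQC, Trim Galore, STAR, edgeR and the builds hg38 and mm10 without versions or roles; how FPKM were made is not given in the sources used here. The table has 38277 rows, of which 94.9% of gene identifiers matched GENCODE vM21, used for positions. Genes with FPKM of at least 1 in at least 3 kidney libraries entered limma 3.58.1 (R 4.3.3) as log2(FPKM + 1), all 4 kidney groups together, the variance prior following mean level, and the fit was tested on simulated data. The text names TAM and matrix genes, the 10 largest rises and falls with a mean of at least 10 FPKM and no overlap, the 5 smallest p in the difference test, and up to 4 members per list; Upk1a and other members of 2 sets count under both. Some genes this rule selects are not reported here. Low FPKM showed no whole-read steps. The members and gene lists were chosen with earlier results of these data known. Alternatives changed the pseudocount, filter, scaling, trend, weights, groups fitted and libraries.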

Additional observations from a re-analysis of the deposited data

Results flagged for a closer look

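Of 186 gene and group pairs examined, 10 held a library far from the others of its group, by the gap to its nearest neighbour as a share of the range of the group, and chance flags about 1 in 20. UNC569 library 5 stood apart in Gatm (0.586, 29.7 FPKM against 12.0 to 17.6 FPKM in the others). UNC569 library 4 stood apart in Kdr (0.626, 2.35 FPKM against 4.52 to 6.44 FPKM in the others). DMSO library 2 stood apart in Stip1 (0.947, 24.3 FPKM against 31 to 31.5 FPKM in the others). DMSO library 3 stood apart in Col3a1 (0.902, 134 FPKM against 186 to 193 FPKM in the others), Acta2 (0.907, 73.7 FPKM against 138 to 147 FPKM in the others), Tagln (0.843, 180.4 FPKM against 333 to 373 FPKM in the others), Slc12a1 (0.838, 31.8 FPKM against 16.5 to 18.4 FPKM in the others), Mmp3 (0.878, 2.46 FPKM against 4.41 to 4.76 FPKM in the others), Adipoq (0.884, 16.8 FPKM against 1.51 to 2.16 FPKM in the others) and Aurka (0.958, 4.86 FPKM against 3.70 to 3.75 FPKM in the others).

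For the named genes below, the test of the difference between the obstructed and the sham response to UNC569 passed by limma, with the difference in log2 fold change, obstructed minus sham, in brackets. It was above 0 for Gas6 (0.62), S100a9 (2.97), Slc15a2 (1.25), Bbs2 (1.34), Bckdhb (1.33), Zcchc7 (1.39), Ngef (1.16), Snrpa (1.77), Stip1 (1.97), Lama5 (1.63), S100a8 (2.34), Itgb6 (0.86), Avpr2 (1.29), Hspb1 (2.89) and Hsph1 (2.20). It was below 0 for Car3 (-2.67), Fmo5 (-1.99), MUCL1 (-1.65), Cd47 (-1.58), Col8a1 (-1.95), Tgfbr2 (-1.14), Clu (-1.30), Gatm (-1.37), Calb1 (-1.97), Aqp3 (-2.25), Clic5 (-0.92), Foxq1 (-1.16), Adipoq (-3.90), Cfd (-5.84), Top2a (-1.36), Cmtm6 (-1.45), Zbtb7a (-1.40) and Rab43 (-1.58). Cd47 here is the row that passed in obstructed kidney, and Adipoq and Cfd hold values listed at 0 in the UNC569 libraries. Hspb1, Cmtm6, Zbtb7a, Rab43 and Hsph1 were named for the smallest p in this very test. Others were named by their values in obstructed kidney, a term of this difference. These passes are therefore a description and no support for a difference.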

How the results depend on the processing

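No paired analysis was possible because the columns of the table name groups and not the labelled samples, so no replicate block could be fitted. In obstructed kidney the 38 higher and 161 lower genes became 7 and 39 with a pseudocount of 0.1, 6 and 37 with only the 2 obstructed groups in the fit, and 332 and 625 with library weights. The higher genes numbered 25 with no filter on low values, 74 with median-of-ratios scaling and 22 with no intensity trend. Leaving out each library in turn gave 0 to 79 higher and 7 to 268 lower. With the close pairs averaged there were 15 higher and 105 lower, and without UNC569 libraries 0 and 2, left out for their high matrix levels, there were 299 and 738. For the difference between the responses, the 947 genes above 0 became 1586 with median-of-ratios scaling and 1766 with library weights, and the 2053 below 0 became 1366 with that scaling. Leaving out each library gave 536 to 1192 above and 1356 to 2253 below. The lowest counts came without sham DMSO library 1 (607 and 1356), sham DMSO library 2 (556 above), sham UNC569 library 1 (606 above) and sham UNC569 library 2 (536 above). The causes were not tested. Over the named genes, 1473 gene and alternative pairs kept direction and side of the threshold, 317 lost significance, 65 gained it and 5 reversed. The reversed fold changes were 0.10 for Pros1 and 0.028 for Postn without UNC569 libraries 4 and 5, -0.16 for Timp1 without DMSO library 3, -0.05 for Timp1 without UNC569 library 6, and -0.13 for Csf3r without DMSO library 0. Leaving out each library gave -0.16 to 0.36 for Timp1 and -0.13 to 0.27 for Csf3r. None of these 4 genes passed where it reversed. Read depth is unknown, so what it limits could not be stated.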
